A study of Rattus norvegicus with 38 samples.

Results

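Blood leukocytes of rats killed 12 h after a dose of methyl parathion were compared with those of rats killed 4 h after the same dose. The comparison used 8 of the 38 arrays of the series, 4 rats at each time and 1 array per rat, chosen by their labels. All were male CDF Fisher 344 rats, about 4 months old, and received 15 mg/kg methyl parathion by injection into the abdomen, in vegetable oil. Other rats of the series, used here for reference values, were killed 24 h (4 rats) or 168 h (3 rats) after this dose, 4 received the oil alone and were killed at 24 h, and acetaminophen at 1200 mg/kg was given to 4 rats killed at 12 h and 4 killed at 4 h. Since no oil-treated rat was killed at 4 or 12 h, time after dosing and hour of the day cannot be told apart. The rats were killed by focused microwave irradiation of the head, blood came from the heart, and RNA was taken from leukocytes caught on a filter, with globin mRNA depleted. Rats are numbered 1 to 4 within a group, as in the labels, and equal numbers do not mark the same animal.

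Methyl parathion is an organophosphate insecticide. In the liver it is converted to methyl paraoxon, which inhibits acetylcholinesterase, so that acetylcholine accumulates at cholinergic synapses. Such poisoning is a stressor that raises circulating glucocorticoids in rodents, and glucocorticoids are known to release neutrophils into the blood and to draw lymphocytes out of it. Blood leukocytes also carry a circadian clock, in which BMAL1 and CLOCK drive the Per, Cry and Nr1d genes and the products of these genes act back on their own transcription.

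Each value below is the log2 of a quantile-normalized array signal, and a change is the 12 h mean minus the 4 h mean on this scale. The SE of a change rests on the spread between rats within all 10 groups of the series, not within the 8 arrays alone. A probe was tested if 3 or more arrays of either time had it at a signal-to-noise ratio of 3 or above. This left 10959 tested probes, of which 3079 carried exactly 1 gene symbol and stood for 3032 genes. All 11 leukocyte defining markers on the array, among them Ptprc, Coro1a and Laptm5, were above this limit in all 8 arrays. The median raw signal was 236 ± 21.7 at 12 h and 264 ± 43.9 at 4 h (SD, n = 4 each; exact two-sided permutation p = 0.314), and 41.4 ± 1.56% of probes were above background at 12 h and 44.2 ± 5.59% at 4 h (exact two-sided permutation p = 0.486). Arrays correlated across probes at 0.928 to 0.947 within the 12 h rats, at 0.938 to 0.964 within the 4 h rats and at 0.930 to 0.947 between the times.

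From 4 to 12 h, 3 of 14 tested T cell markers fell, 2 of 15 neutrophil markers and 2 of 14 glucocorticoid-induced genes rose, and of 22 immediate early and mitogen-activated protein (MAP) kinase feedback genes 3 rose and 1 fell. Lists can share members, and Dusp1 is counted among the rises of both the glucocorticoid-induced and the feedback genes. Of 12 tested clock genes 1 rose and 2 fell. Both of these falls, and Dusp4 among the rises of the feedback genes, were tested through 1 time only. With no detection filter no clock gene passed. Of the 10959 probes, 204 passed limma's moderated test after Benjamini-Hochberg adjustment (1.86%), 75 of them higher at 12 h (0.684%) and 129 lower (1.18%). Among probes with a symbol, 30 rose, by 0.38 (Ube2b) to 2.29 (Dusp4), and 49 fell, by -0.42 (Ptbp1) to -2.34 (Dnase2b). The unadjusted p was under 0.05 for 2604 probes (23.8%), and the median change of all tested probes was -0.10 (-0.33 after median centring in place of quantile normalization), with 41.4% of the changes positive. The smallest adjusted p of a named probe was 0.0167 (Tspan8), and that of Ube2b was 0.0486, so that the calls lay close together just under the threshold of 0.05. In the rats at 12 h and 4 h the values of a probe did not overlap for 13.4% of all tested probes (5.25% higher and 8.11% lower at 12 h), and among the named calls for 15 of 30 rises and 35 of 49 falls.

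The number of calls depended on single rats. Without rat 2 of the 12 h group 1266 of 10958 probes passed, 456 higher and 810 lower. Without rat 4 of the 4 h group 282 of 10958 did, 153 higher and 129 lower. Each rat was left out in turn, and values without 1 rat are descriptions and no further test. Without rat 2 of the 4 h group 17 passed, and without rat 1, 3 or 4 of the 12 h group or rat 1 or 3 of the 4 h group only 1 probe passed each time. This was in each case the same unnamed probe (21385715), which was at 12.59, 13.38, 12.91 and 13.15 at 12 h, against 13.98, 13.98, 13.94 and 13.76 at 4 h, a change of -0.91 ± 0.139 (SE; limma adjusted p = 0.0019). No named call therefore held in all of these fits, although all 79 kept their direction and an unadjusted p under 0.05 whichever rat was left out, and all 79 were called without rat 2 of the 12 h group. With median centring 15 probes passed, 13.3% of them higher, and in a fit of the 8 arrays alone 82 passed, 85.4% of them higher, beside 36.8% of the 204. None of the T cell, neutrophil and clock genes passed under median centring, in the 8 arrays alone or with no detection filter, and of the glucocorticoid-induced genes 0, 0 and 1 did.

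A probe that passed the signal-to-noise limit at only 1 of the times was tested because it was high there, so that its test is not independent of the filter. This holds for 11 of the 79 named calls, Dusp4 through 12 h and Dnase2b, Dpp4, Il2ra, Per3, Pparg, Prrc2a, Soat2, Nr1d2, Spata6 and Dnmt1 through 4 h, and their values below are descriptions. With no filter 3 of the 11 passed, Dusp4 (limma adjusted p = 0.0452), Il2ra (0.0490) and Prrc2a (0.0496), and the adjusted p of the other 8 was 0.0746 to 0.106. Of all tested probes 1187 were above the limit only through 4 h and 418 only through 12 h. The 204 calls, 1.86% of all tested probes, included 23 of the 1187, none of them higher, and 3 of the 418. With no filter 19 probes passed higher and 14 lower. With the limit required in all 4 arrays of a side, 91 passed higher and 152 lower. What part the filter had in the larger number of calls lower at 12 h was not tested.

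In bulk RNA of this kind, fewer cells of a type and less of a transcript per cell cannot be told apart.

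**Figure D1:**
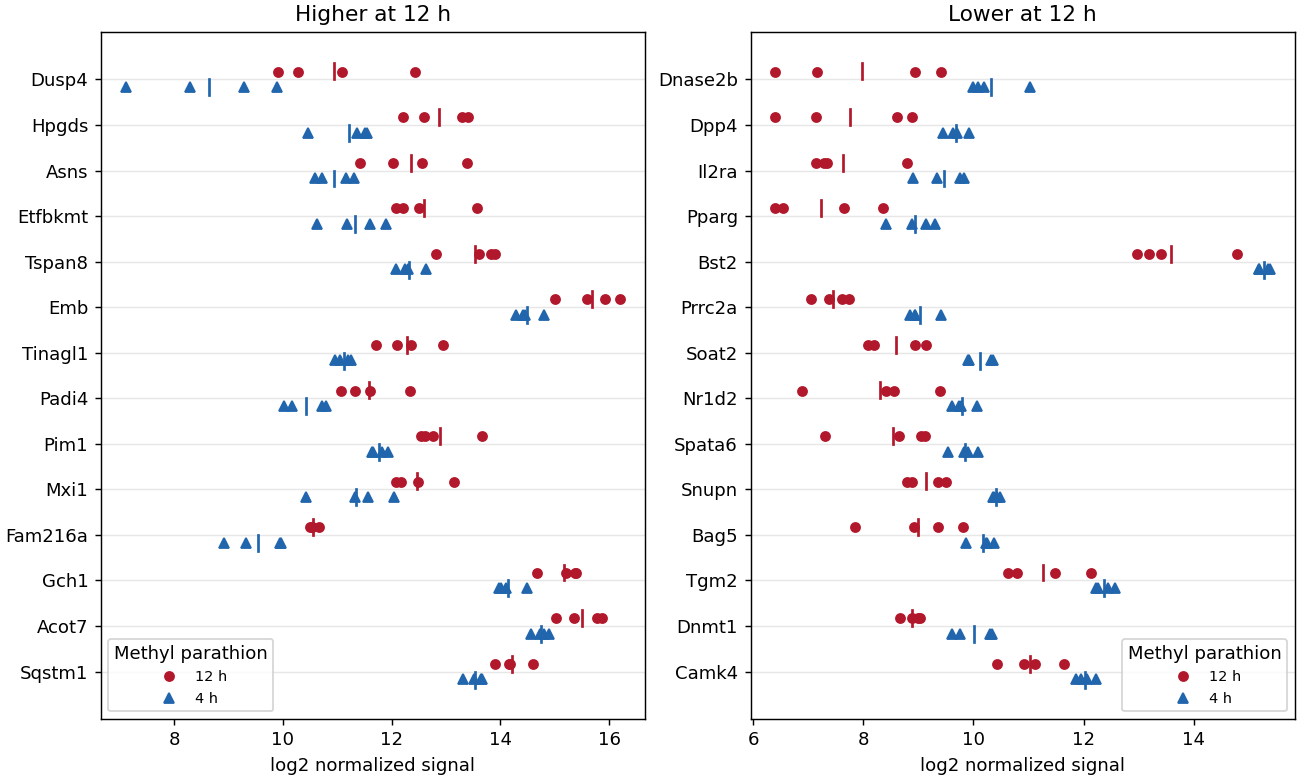
The log2 normalized signal of every rat is plotted for the 14 largest rises (left) and the 14 largest falls (right) among named probes that passed the test and whose times do not overlap. Circles are the 4 rats at 12 h, triangles the 4 rats at 4 h, and vertical bars the group means. In Dusp4 the lowest 12 h rat, at 9.92, lies just above the highest 4 h rat, at 9.89, and in Snupn the gap is wide, with 9.50 as the highest 12 h value and 10.35 as the lowest 4 h value.

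The named call with the highest positive change was Dusp4, above the limit in 3 arrays at 12 h and 2 at 4 h, a dual-specificity phosphatase that inactivates MAP kinases. It was at 12.43, 9.92, 11.09 and 10.28 in the 12 h rats, against 8.29, 9.28, 7.11 and 9.89 in the 4 h rats. The groups barely separated, with rat 1 far above the others at 12 h and rat 3 lowest at 4 h. The change was 2.29 ± 0.477 (SE; limma adjusted p = 0.0230), and the vehicle rats ran from 9.01 to 10.18, across the gap between the times. Dusp1, a related phosphatase that is also induced by glucocorticoids, was at 17.89, 16.74, 17.93 and 17.87 at 12 h, against 16.33, 15.99, 16.15 and 17.26 at 4 h (change 1.18 ± 0.311; limma adjusted p = 0.0428). Rat 2 was the only 12 h rat below the highest 4 h rat, and that 4 h rat, rat 4, stood apart from its own group. Klf6, an immediate early transcription factor, rose by 0.71 ± 0.177 (limma adjusted p = 0.0341). Nr4a1, an orphan nuclear receptor that T cells induce on antigen receptor signalling, fell by 0.83 on this scale (SE 0.217; limma adjusted p = 0.0405), with 12 h rats at 12.20, 12.37, 11.60 and 11.78 and 4 h rats at 12.52, 12.93, 12.86 and 12.93. Of 22 tested immediate early and MAP kinase feedback genes these 4 passed, 3 higher and 1 lower, with a list median of 0.28. After median centring none passed, the list median was 0.04 and 11 of the 22 were positive. Egr1 (-0.13) and Jun (-0.08) had values close to the median of all probes.

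Of 14 tested genes that glucocorticoids induce, 2 rose, Dusp1 and Anxa1, and none fell. Of the 14, 12 had positive changes, beside 41.4% of all tested probes, and the median was 0.51, beside -0.10 over all probes. Anxa1, a mediator of the anti-inflammatory action of glucocorticoids, was at 16.92, 15.22, 16.46 and 16.61 at 12 h, against 14.52, 15.16, 14.74 and 15.64 at 4 h. The groups overlapped through rat 2 at 12 h and rat 4 at 4 h, and the change was 1.29 ± 0.286 (limma adjusted p = 0.0277). Crispld2, a secreted glucocorticoid-induced protein, had the widest spread, with 14.29, 8.88, 14.24 and 13.34 at 12 h and 9.53, 8.94, 10.45 and 11.63 at 4 h. Rat 2 at 12 h was thus lower than every 4 h rat while its 3 companions were above them all, and the change of 2.55 ± 0.838 did not pass (limma adjusted p = 0.0792). Fkbp5, which binds HSP90 and restrains the glucocorticoid receptor, was at 12.16, 10.17, 11.64 and 11.50 at 12 h, against 9.66, 10.57, 10.03 and 11.79 at 4 h (change 0.86 ± 0.410; limma adjusted p = 0.197), and Tsc22d3, which encodes the glucocorticoid-induced leucine zipper, had a change of 0.47 ± 0.207 (limma adjusted p = 0.168).

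The mean deviation of the 14 genes from their 4 h means, taken per rat, was 1.04, -0.10, 0.96 and 0.85 at 12 h, against -0.22, -0.12, -0.21 and 0.55 at 4 h. Rat 2 at 12 h sat among the low 4 h rats and rat 4 at 4 h stood above its group. Without rat 2 of the 12 h group 7 of the 14 rose, with a median of 0.62 (all tested probes: 456 of 10958 higher). Crispld2 was then at 3.82 (limma adjusted p = 0.000935) and Il1r2 at 2.50 (limma adjusted p = 0.000931). Rat 2 was the lowest 12 h rat in both genes, so these values are descriptions. Without rat 4 of the 4 h group 3 rose, with a median of 0.59 (all tested probes: 153 of 10958 higher). With any other rat left out none passed, and none did under median centring (median 0.33).

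**Figure D2:**
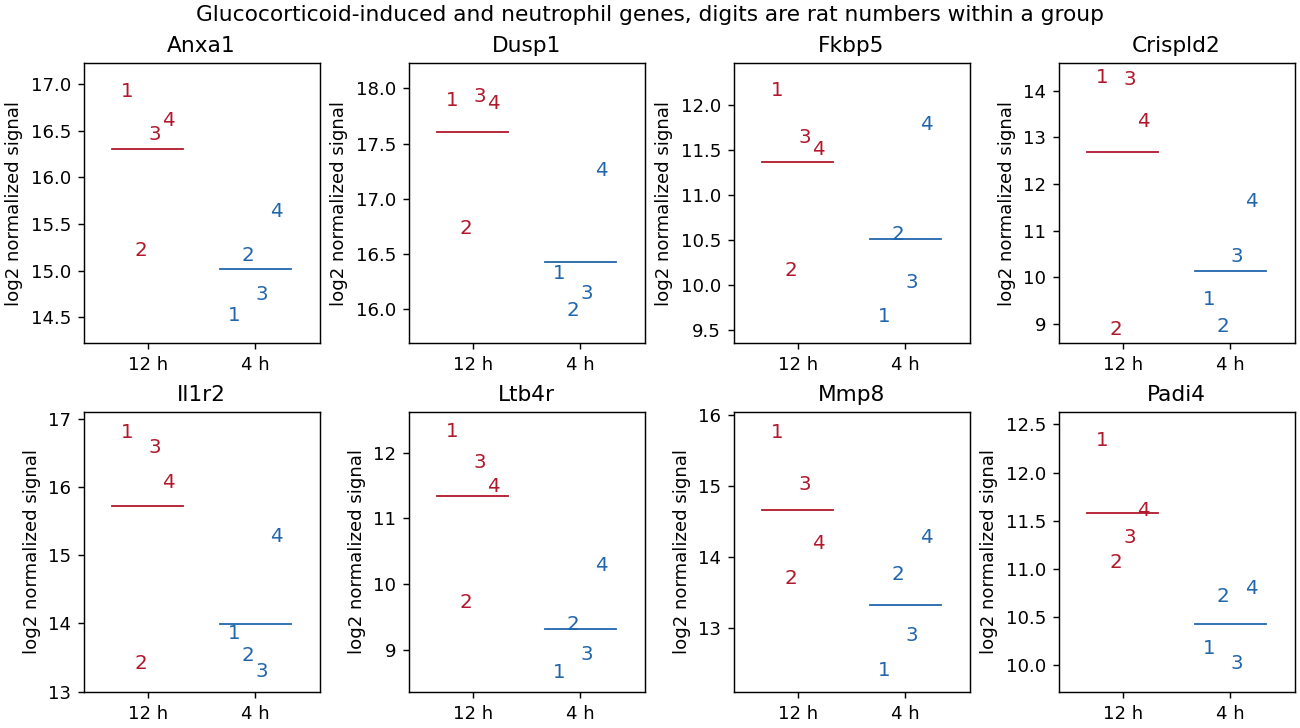
Log2 normalized signals of 8 glucocorticoid-induced or neutrophil genes are plotted at 12 h (left in each panel) and 4 h (right), each digit being the number of a rat within its group and each line the group mean. Rat 2 is the lowest of the 12 h rats in all 8 panels, and rat 4 is the highest of the 4 h rats in all 8.

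Of 15 tested neutrophil markers 2 rose and none fell, with 11 positive and 4 negative changes (all tested probes: 41.4% positive) and a median of 0.54. Ltb4r, the receptor through which neutrophils follow leukotriene B4, was at 12.32, 9.72, 11.85 and 11.48 at 12 h, against 8.66, 9.39, 8.94 and 10.29 at 4 h. Again rat 2 at 12 h lay below the highest 4 h rat, and the change was 2.03 ± 0.523 (limma adjusted p = 0.0382). Padi4, the enzyme that citrullinates histones when neutrophils release chromatin, was at 12.33, 11.07, 11.33 and 11.61 at 12 h, against 10.17, 10.71, 10.02 and 10.80 at 4 h, without overlap (change 1.16 ± 0.316; limma adjusted p = 0.0468). Il1r2, the decoy receptor of interleukin 1, which is on the neutrophil and on the glucocorticoid list, was at 16.81, 13.41, 16.58 and 16.07 at 12 h, against 13.85, 13.53, 13.29 and 15.28 at 4 h (change 1.73 ± 0.527; limma adjusted p = 0.0618). Mmp8, neutrophil collagenase, had a change of 1.34 ± 0.392 (limma adjusted p = 0.0568). The abundant granulocyte proteins S100a8 (0.54) and S100a9 (0.48) did not pass, nor did the granule defensins Np4 (-0.51) and Defa5 (-0.98), whose changes were negative. Without rat 2 of the 12 h group 6 of the 15 neutrophil markers rose (all tested probes: 456 of 10958 higher). Without rat 4 of the 4 h group 4 did (all tested probes: 153 of 10958 higher). None passed with any other rat left out.

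Other rises included genes of myeloid cells. Hpgds, the haematopoietic prostaglandin D synthase of mast cells and eosinophils, was at 13.29, 12.21, 12.59 and 13.40 at 12 h, against 11.51, 11.55, 11.36 and 10.46 at 4 h. All 12 h rats, rat 2 included, were above all 4 h rats (change 1.65 ± 0.392; limma adjusted p = 0.0313), and the vehicle rats were at 11.46 to 11.96. It was the only riser among 8 tested eosinophil, basophil and mast cell genes, of which Hdc, the histamine-forming enzyme, and Prg2, the eosinophil major basic protein, had changes of -1.51 and -1.19 (limma adjusted p = 0.154 and 0.168). Tspan8, a tetraspanin of the cell surface, was at 13.82, 12.82, 13.61 and 13.89 at 12 h, against 12.24, 12.29, 12.09 and 12.64 at 4 h. It rose by 1.22 ± 0.219 (limma adjusted p = 0.0167). Among called probes outside the rule for named genes, singled out after their values were seen, were Ccl6, a chemokine of myeloid cells (1.23 ± 0.292), Fcgr2a, a receptor for the constant part of IgG (1.03 ± 0.248), Alox5ap, which activates 5-lipoxygenase for leukotriene synthesis (0.93 ± 0.246), and Slc16a3, a lactate exporter (1.06 ± 0.208), with limma adjusted p of 0.0313, 0.0321, 0.0417 and 0.0223. Unlike Hpgds and Tspan8, each of these overlapped between the times, with rat 2 at 12 h below rat 4 at 4 h. For Ccl6 these rats were at 17.57 and 18.18, and for Alox5ap at 15.54 and 16.13. Of 9 probes for monocyte and macrophage markers, Adgre1, the F4/80 antigen, fell by 1.07 (SE 0.284; limma adjusted p = 0.0428) and Cd14, the lipopolysaccharide co-receptor, had a change of 0.53 ± 0.312.

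Of 14 tested T cell markers 3 fell at 12 h and none rose. All 14 changes were negative and 10 had an unadjusted p under 0.05 (all tested probes: 41.4% positive, 23.8% under 0.05), and the median was -0.75. Cd4 was above the limit only through 4 h. Cd40lg, the ligand by which helper T cells activate B cells, was at 11.61, 13.17, 11.87 and 11.90 at 12 h, against 13.50, 13.25, 13.25 and 12.96 at 4 h (change -1.10 ± 0.283; limma adjusted p = 0.0376). Lat, the signalling adaptor of the T cell receptor, was at 14.03, 15.23, 14.46 and 14.60, against 15.54, 15.41, 15.49 and 15.01 (change -0.78 ± 0.199; limma adjusted p = 0.0350). Cd8b, a chain of the cytotoxic T cell co-receptor, was at 13.61, 15.15, 14.06 and 14.28, against 15.12, 15.22, 15.25 and 14.88 (change -0.84 ± 0.229; limma adjusted p = 0.0468). In all 3 genes rats 1, 3 and 4 at 12 h were below every 4 h rat, and rat 2 was within the range of the 4 h group.

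Cd4, the helper T cell co-receptor, had a change of -1.33 (limma adjusted p = 0.0715), Cd5, a modulator of T cell receptor signals, -0.88 (limma adjusted p = 0.0540), and Cd3d, a subunit of CD3, -0.79 (limma adjusted p = 0.0570). The mean deviation of the 14 markers per rat was -1.12, -0.03, -0.79 and -0.88 at 12 h, against -0.10, 0.12, 0.03 and -0.05 at 4 h. Without rat 2 of the 12 h group 10 of the 14 fell, with a median of -1.03 (all tested probes: 810 of 10958 lower). Without rat 4 of the 4 h group 4 fell (all tested probes: 129 of 10958 lower). None of the 14 passed with any other rat left out. Other named calls, on none of the lists, were Il2ra, Camk4 and Dpp4. Il2ra, the high-affinity subunit of the interleukin 2 receptor, was at 7.13, 8.79, 7.34 and 7.29 at 12 h, not well above background on any of these arrays, against 9.82, 9.76, 8.91 and 9.35 at 4 h. By the means its level was at least 3.53-fold lower (change -1.82 ± 0.379; limma adjusted p = 0.0230, and 0.0490 with no filter). Camk4, a calcium-dependent kinase, was at 10.43, 11.64, 10.92 and 11.12, against 12.22, 11.85, 12.06 and 11.95 (change -0.99 ± 0.211; limma adjusted p = 0.0230), and Dpp4 (CD26), a surface peptidase, was at 8.62, 8.89, 6.40 and 7.14, against 9.71, 9.63, 9.92 and 9.44 (change -1.91 ± 0.475; limma adjusted p = 0.0341, and 0.0746 with no filter), where 6.40 is the floor of the scale.

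Other lymphocyte lists had no call. Natural killer and cytotoxic cell markers (18 tested) had a median of 0.10 (-0.13 after median centring), and B cell markers (5 tested) one of -0.17, with Fcer2, the low-affinity IgE receptor, at 9.14, 11.11, 7.02 and 9.08 at 12 h, against 10.07, 11.23, 10.27 and 9.64 at 4 h (change -1.22 ± 0.620; limma adjusted p = 0.228). The 9 tested MHC class II genes were all negative (all tested probes: 41.4% positive), with a median of -0.37 and an unadjusted p under 0.05 for Cd74, the invariant chain. Among receptors that guide T cells, Ccr7, which leads to lymph nodes, had a change of -0.96 ± 0.292 (limma adjusted p = 0.0609), S1pr1, which lets lymphocytes leave them, -0.56 ± 0.337 (limma adjusted p = 0.310), and Cxcr4, the bone marrow homing receptor, 0.96 ± 0.284 and 0.76 ± 0.255 by its 2 probes (limma adjusted p = 0.0589 and 0.0848). None of 7 platelet genes passed (median 0.03, and -0.24 after median centring). Of 12 erythroid genes, which mark young red cells and reticulocytes, none passed, but 9 were positive and 7 had an unadjusted p under 0.05 (all tested probes: 41.4% positive, 23.8% under 0.05). The median was 0.75, the highest of the 29 lists. Rhd, a blood group antigen of red cells, was at 14.45, 13.47, 14.07 and 13.55 at 12 h, against 12.36, 12.42, 12.59 and 12.91 at 4 h (change 1.31 ± 0.476; limma adjusted p = 0.103), but the vehicle rats, at 11.84 to 14.02, spanned both times. The part of cell make-up in the calls above was not tested.

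**Figure D3:**
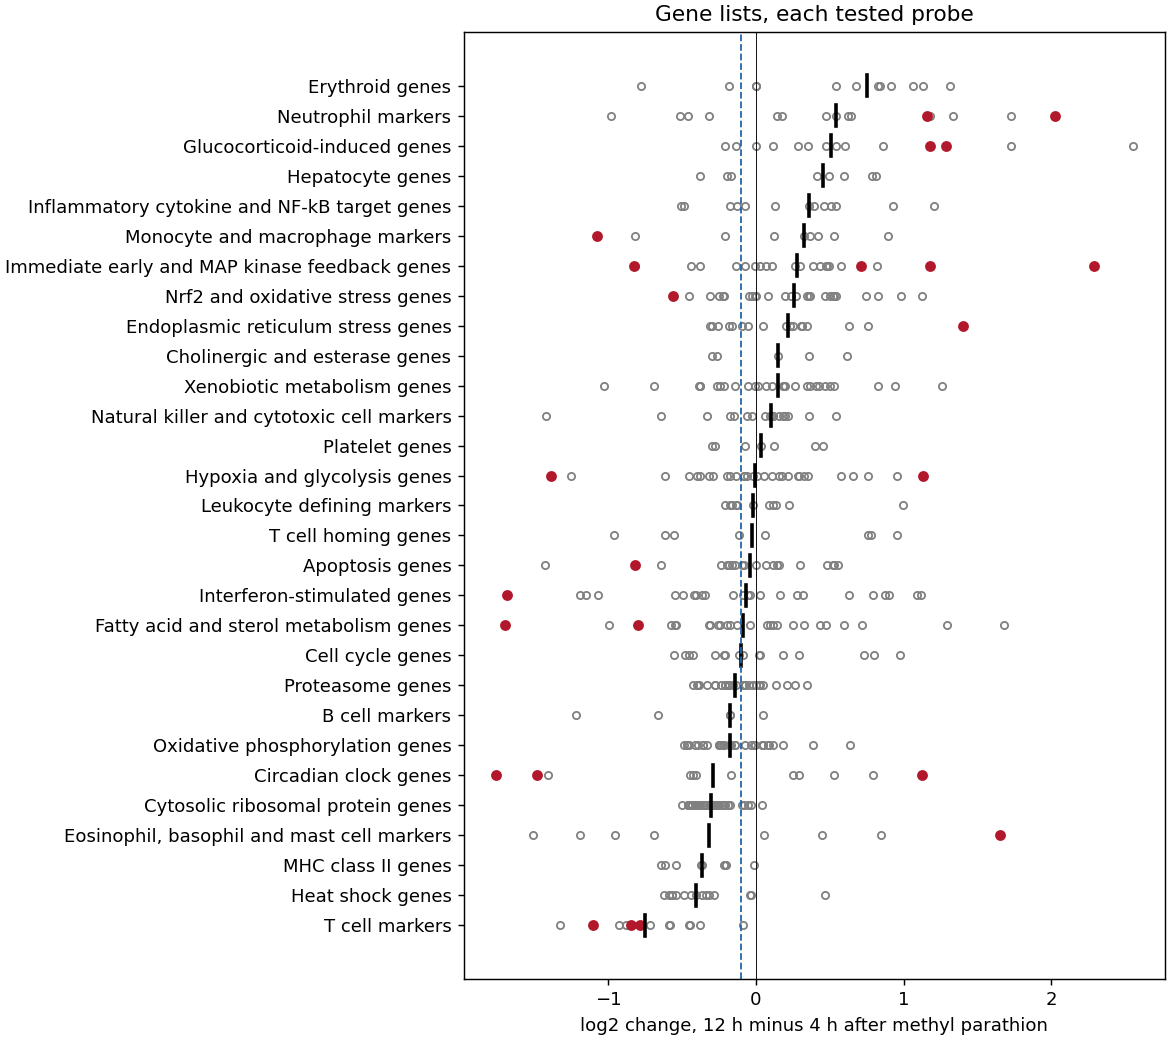
The change from 4 h to 12 h (12 h minus 4 h, log2) of each tested probe is plotted for 29 gene lists, ordered by their median (black bar). Filled circles passed limma's test at an adjusted p of at most 0.05, open circles did not, and the dashed line is the median of all 10959 tested probes, -0.10. The lists run from erythroid genes at 0.75 to T cell markers at -0.75.

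Of 12 tested clock genes 1 rose (Per2) and 2 fell (Per3 and Nr1d2), with a median of -0.29. Per3, Nr1d2 and Tef were above the limit only through 4 h, and with no filter none of the 12 passed. Without rat 4 of the 4 h group Per2 was the only call (all tested probes: 282 of 10958 called). Without rat 2 of the 12 h group 1 gene rose and 3 fell (all tested probes: 456 higher and 810 lower of 10958). No clock gene passed with any other rat left out. Per2, a repressor of BMAL1 and CLOCK and itself a direct target of the glucocorticoid receptor in mice, was at 12.65, 11.41, 12.48 and 12.80 at 12 h, against 10.49, 11.38, 11.21 and 11.74 at 4 h. The 12 h rats 1, 3 and 4 lay above all 4 h rats and rat 2 among them (change 1.13 ± 0.295; limma adjusted p = 0.0411). Per3, a member of the same family, was not well above background on any 12 h array, at 7.40, 7.15, 6.94 and 6.44, against 7.22, 9.52, 8.82 and 9.40 at 4 h. By the means the level was at least 3.34-fold lower (change -1.76 ± 0.482; limma adjusted p = 0.0481, and 0.106 with no filter), and rat 1 at 4 h was as low as the 12 h rats. Nr1d2 (REV-ERB beta), a repressor of Bmal1, was at 8.41, 8.56, 9.38 and 6.89 at 12 h, with only 1 array above the signal-to-noise limit, against 9.73, 9.78, 9.62 and 10.07 at 4 h. The groups did not overlap, and the change was -1.49 ± 0.392 (limma adjusted p = 0.0421, and 0.0912 with no filter).

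The promoter sequences of these 3 genes, from 250 bases before to 50 after the transcription start, are shown because the genes changed in different directions. They are RefSeq sequences of the rat build GRCr8, 5′ to 3′ on the gene's strand, for Per2 at chr9:99496944-99497243 (minus strand), for Per3 at chr5:166777751-166778050 (minus strand) and for Nr1d2 at chr15:9954784-9955083 (plus strand). Capitals mark matches, on either strand, to the E-box CACGTG, bound by BMAL1 and CLOCK, to the D-box TTATGTAA or its variant TTACGTAA, bound by DBP, TEF and NFIL3, or to AGGTCA, the core of the element bound by ROR and REV-ERB proteins.
Per2: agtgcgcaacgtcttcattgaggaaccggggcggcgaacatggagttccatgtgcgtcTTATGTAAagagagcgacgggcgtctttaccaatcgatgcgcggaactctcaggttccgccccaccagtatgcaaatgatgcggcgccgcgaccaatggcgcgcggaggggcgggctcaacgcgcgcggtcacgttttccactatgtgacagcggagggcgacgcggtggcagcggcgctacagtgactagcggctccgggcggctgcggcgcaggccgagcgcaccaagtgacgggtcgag
Per3: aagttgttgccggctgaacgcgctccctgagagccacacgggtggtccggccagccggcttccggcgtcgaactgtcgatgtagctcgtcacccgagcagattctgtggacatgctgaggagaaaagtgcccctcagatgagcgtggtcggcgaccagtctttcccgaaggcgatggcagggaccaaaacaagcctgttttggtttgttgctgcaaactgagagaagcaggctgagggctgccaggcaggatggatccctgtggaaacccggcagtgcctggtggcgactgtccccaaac
Nr1d2: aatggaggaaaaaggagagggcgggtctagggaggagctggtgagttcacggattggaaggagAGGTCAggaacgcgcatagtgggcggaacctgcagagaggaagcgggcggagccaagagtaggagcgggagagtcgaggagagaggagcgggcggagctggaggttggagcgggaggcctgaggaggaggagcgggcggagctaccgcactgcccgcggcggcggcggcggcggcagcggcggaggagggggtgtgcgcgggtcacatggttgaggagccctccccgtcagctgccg
Per2 held a D-box at position -192 from the start, a match found in 0.881% of 27457 rat promoters of the same length, and Nr1d2 held AGGTCA at position -187, which 15.7% of promoters hold. None of the motifs was found in this window of Per3. Of the 12 tested clock genes 10 had a promoter in the table, and the E-box CACGTG (in 6.65% of promoters) was found in those of Tef and Bhlhe40. AGGTCA was also found in that of Bmal1, which did not pass, at position -15. Only these exact letters were sought. E-boxes of other spelling, in Per2 as elsewhere, were neither marked nor counted.

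Over the whole course, Per2 averaged 11.6 in the vehicle rats, 11.2 at 4 h, 12.3 at 12 h, 11.6 at 24 h and 11.4 at 168 h. Per3 averaged 8.80 in the vehicle rats, 8.74 at 4 h, 6.98 at 12 h, 9.05 at 24 h and 8.55 at 168 h, so that the 12 h group alone was low, and the 24 h rats (8.29 to 9.47) were all above the 12 h rats (change from 12 h to 24 h 2.07; limma adjusted p = 0.0362). That comparison shares its 12 h arrays with that of 12 h against 4 h, so that the values are set side by side only. Nr1d2 averaged 9.70, 9.80, 8.31, 8.94 and 10.1 in the same order. Tef, a D-box factor, was at 7.62, 7.16, 8.25 and 8.50 at 12 h, against 9.37, 9.48, 9.45 and 8.87 at 4 h, without overlap but not passing (change -1.41 ± 0.452; limma adjusted p = 0.0723). Dbp, the related factor with the widest daily swing in many tissues, had a change of -0.41 ± 0.187 (limma adjusted p = 0.181), Cry1, a repressor of BMAL1 and CLOCK, one of -0.43 ± 0.175 (limma adjusted p = 0.141), and Nfil3, which opposes DBP, one of 0.29 ± 0.248. Nr1d1 (REV-ERB alpha), with a change of 0.79 ± 0.422 (limma adjusted p = 0.247), and Bmal1, with 0.25 ± 0.528 (-0.12 with array weights), did not pass either, nor did Csnk1d and Csnk1e, the kinases that phosphorylate PER proteins (0.53 and -0.17), or Bhlhe40 (-0.45).

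**Figure D4:**
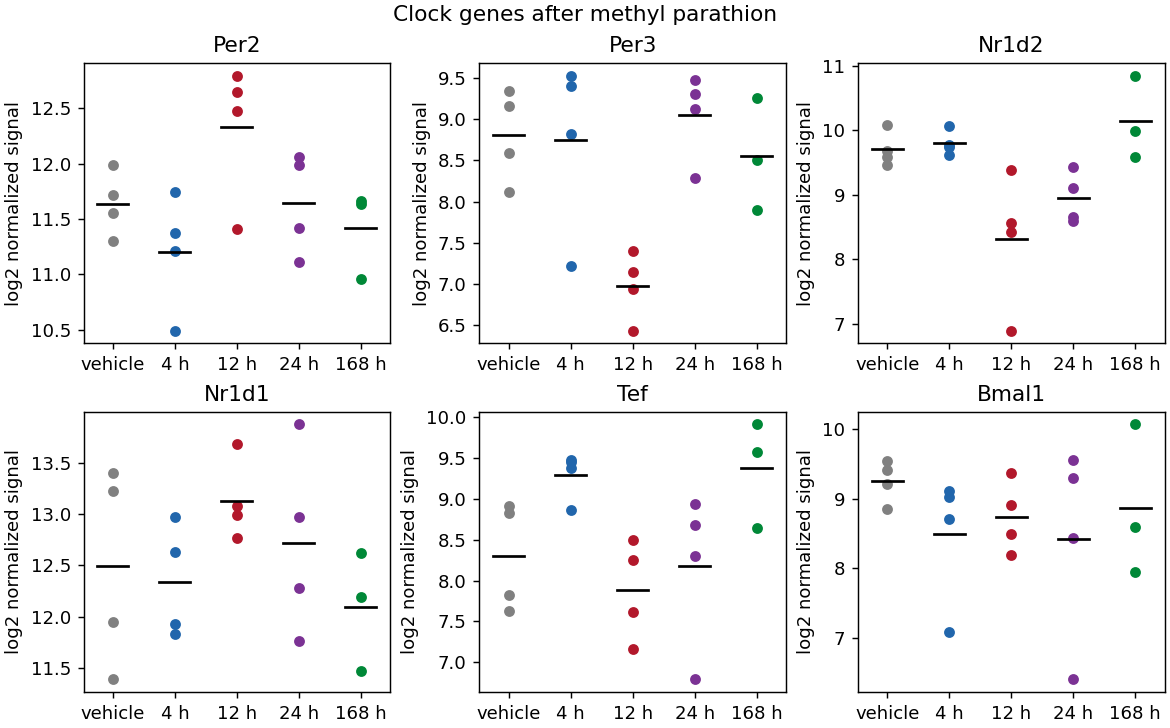
Log2 normalized signals of 6 clock genes are plotted for each rat in the vehicle group and at 4, 12, 24 and 168 h after methyl parathion, with bars at the group means. Per3 and Nr1d2 are lowest and Per2 is highest at 12 h, where Per3 averages 6.98 and Per2 12.3. The Bmal1 values at 12 h overlap those at 4 h.

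Stress and protein quality control genes gave few calls. Asns, asparagine synthetase, which the ATF4 branch of the stress response induces, was at 13.39, 11.41, 12.56 and 12.02 at 12 h, against 10.72, 11.16, 10.59 and 11.32 at 4 h, without overlap (change 1.40 ± 0.378; limma adjusted p = 0.0468). It was the only call among 18 endoplasmic reticulum stress genes (median 0.22, and -0.04 after median centring), although Ddit3 (CHOP) and Ppp1r15a (GADD34), both targets of ATF4, had changes of 0.63 ± 0.187 and 0.76 ± 0.241 (limma adjusted p = 0.0591 and 0.0701). Sqstm1 (p62), an autophagy receptor, was at 14.59, 13.90, 14.18 and 14.15 at 12 h, against 13.31, 13.63, 13.52 and 13.66 at 4 h, a rise of 0.68 ± 0.141 (limma adjusted p = 0.0230). Of 15 heat shock genes none passed, but 14 were negative and 9 had an unadjusted p under 0.05 (all tested probes: 41.4% positive, 23.8% under 0.05). The list median was -0.41, and the smallest limma adjusted p (0.0554) was that of Bag3, a co-chaperone of HSP70. Outside this list, the co-chaperones Dnaja2, of the HSP40 family, and Bag5 fell by 0.89 and 1.18 (SE 0.230 and 0.321; limma adjusted p = 0.0382 and 0.0468). Of 26 probes for Nrf2 and oxidative stress genes, 1 fell, that of Sod1, the cytosolic superoxide dismutase (change -0.56 ± 0.153; limma adjusted p = 0.0468). It was at 16.02, 16.43, 16.20 and 16.35 at 12 h, against 16.87, 16.92, 16.74 and 16.72 at 4 h. The list as a whole leaned the other way, with 16 of the 26 positive (41.4% of all tested probes) and a median of 0.25 (0.03 after median centring). An unadjusted p under 0.05 was found for 8 of its probes higher and 1 lower at 12 h. Gclm, which regulates glutathione synthesis, was higher in all 12 h rats than in all 4 h rats but did not pass (change 1.13 ± 0.321; limma adjusted p = 0.0544), and its vehicle rats ran from 13.59 to 15.27, across both times.

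Of 41 probes for 38 cytosolic ribosomal protein genes none passed. Of the 41, 40 had negative changes and 25 an unadjusted p under 0.05 (all tested probes: 41.4% positive, 23.8% under 0.05), with a median of -0.30, and the smallest adjusted p was 0.0554 (Rpl18). The mean deviation per rat was -0.49, -0.08, -0.34 and -0.29 at 12 h, against -0.02, 0.07, -0.01 and -0.04 at 4 h. Without rat 2 of the 12 h group 14 probes passed, all lower (all tested probes: 810 of 10958 lower). Oxidative phosphorylation (35 probes, median -0.18) and proteasome genes (28 probes, median -0.14) had no call either.

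Of 24 tested interferon-stimulated genes, only Bst2 (tetherin), which holds budding viruses at the cell surface, passed. It was at 13.18, 14.78, 12.97 and 13.41 at 12 h, against 15.38, 15.34, 15.18 and 15.19 at 4 h, with all 12 h rats below all 4 h rats (change -1.69 ± 0.327; limma adjusted p = 0.0223). Mx1, an antiviral GTPase, had a change of -1.15 ± 0.325 (limma adjusted p = 0.0540), whereas Oas1a and Oas1k, of the family of double-stranded RNA sensors, had changes of 0.79 ± 0.236 and 0.90 ± 0.278 (limma adjusted p = 0.0595 and 0.0645). An unadjusted p under 0.05 was found for 6 genes of the list in each direction, beside 23.8% of all tested probes in either direction. Without rat 2 of the 12 h group 4 rose and 3 fell. Inflammatory cytokine and NF-kB target genes (13 tested) had no call and a median of 0.36, with Il1b, interleukin 1 beta, at 0.93 ± 0.293 (limma adjusted p = 0.0685) and Il1rap, a subunit of its receptor, at 1.20 ± 0.369 (limma adjusted p = 0.0634).

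Among lipid genes, Pparg, the nuclear receptor that drives lipid storage and alternative macrophage activation, was at 7.65, 8.35, 6.54 and 6.40 at 12 h, not well above background on any of these arrays, against 8.40, 9.31, 8.89 and 9.14 at 4 h. By the means its level was at least 3.15-fold lower (change -1.70 ± 0.430; limma adjusted p = 0.0349, and 0.0752 with no filter). Soat2, a cholesterol-esterifying enzyme, fell by 1.53 (SE 0.384; limma adjusted p = 0.0348, and 0.0768 with no filter), with 12 h rats at 9.14, 8.93, 8.09 and 8.20 and 4 h rats at 9.90, 9.91, 10.31 and 10.36. Fasn, fatty acid synthase, fell by 0.80 (SE 0.193; limma adjusted p = 0.0323). In the list of 26 fatty acid and sterol metabolism genes Pparg and Fasn were the calls, and the median was -0.09. Dgat2, which forms triglycerides, had a change of 1.29 ± 0.390 (limma adjusted p = 0.0606). The list had 4 rises and 3 falls when rat 2 of the 12 h group was left out (all tested probes: 456 higher and 810 lower of 10958). Of 30 probes for hypoxia and glycolysis genes, that of Mxi1, an antagonist of MYC, rose (change 1.13 ± 0.270; limma adjusted p = 0.0319) and that of Eno3, the muscle form of enolase, fell (change -1.39 ± 0.334; limma adjusted p = 0.0321). Eno3 was at 12.82, 14.46, 12.19 and 12.87 at 12 h, against 14.45, 14.78, 14.55 and 14.11 at 4 h.

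The named call with the most negative change was Dnase2b, an acid endonuclease, above the limit in 2 arrays at 12 h and 4 at 4 h, at 7.17, 9.41, 6.40 and 8.95 at 12 h, against 10.19, 11.03, 9.99 and 10.08 at 4 h (change -2.34 ± 0.609; limma adjusted p = 0.0392, and 0.0752 with no filter). The 12 h value of rat 3 is the floor of the scale. Rnase6, a secreted antimicrobial ribonuclease, also fell by 2.03 (SE 0.445; limma adjusted p = 0.0277), with rat 2 at 12 h, at 14.08, inside the 4 h range of 13.92 to 14.40 and the others at 11.12 to 11.63. It was singled out after its values were seen. Prrc2a, an RNA-binding protein that reads methylated adenosine in mice, was at 7.62, 7.37, 7.05 and 7.75 at 12 h, not well above background on any array, against 8.95, 9.41, 8.93 and 8.84 at 4 h. By the means its level was at least 3.00-fold lower (change -1.59 ± 0.338; limma adjusted p = 0.0230, and 0.0496 with no filter). Casp4, an inflammatory caspase, fell by its probe 22370065 (change -0.82 ± 0.188; limma adjusted p = 0.0313), while its probe 20899170 had a change of -0.64 ± 0.227 and did not pass (limma adjusted p = 0.0956). Dnmt1, the maintenance DNA methyltransferase, had a change of -1.11 ± 0.284 (limma adjusted p = 0.0362, and 0.0849 with no filter), with 1 of 4 arrays above the signal-to-noise limit at 12 h and all 4 at 4 h. Spata6, Snupn, Tgm2, Resp18, Mal and Cd99l2 were further non-overlapping falls, with changes of -1.31 to -0.81, and Etfbkmt, Emb, Tinagl1, Pim1, Fam216a, Gch1 and Acot7 were further non-overlapping rises, with changes of 0.76 to 1.27.

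Genes of the chemical's known target were barely measurable. Ache, acetylcholinesterase, was above the signal-to-noise limit in 0 of 4 arrays at 12 h and 1 of 4 at 4 h, and Bche, butyrylcholinesterase, in none at either time, so that neither was tested. Of 31 cholinergic and esterase genes on the array 5 were tested and none passed, the smallest adjusted p being 0.231 for Apeh, an acylpeptide hydrolase that organophosphates inhibit. Of 28 xenobiotic metabolism genes, 8 hepatocyte genes and 16 cell cycle genes none passed, with medians of 0.15 (-0.09 after median centring), 0.45 and -0.10. Of 20 probes for apoptosis genes only that of Casp4 did.

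Relative to the vehicle rats, no probe passed at 4 h (0% of 10959, limma, with 1288 probes, 11.8%, at an unadjusted p under 0.05) and 1076 did at 12 h (9.82%). These comparisons share their arrays with that of 12 h against 4 h, so that values are set side by side only. Anxa1 differed from the vehicle rats by 1.14 at 12 h and -0.15 at 4 h, Ltb4r by 2.61 and 0.58, Cd40lg by -0.90 and 0.20, Bst2 by -1.33 and 0.36, and Il2ra by -1.95 and -0.13. At 24 h against 12 h, 105 probes passed (0.958%), among them Prrc2a (2.53), Per3 (2.07), Il2ra (1.51) and Bag5 (1.36), with limma adjusted p of 0.00012, 0.0362, 0.0429 and 0.0380. This comparison shares the 12 h arrays, in which these 4 genes had been picked as low, so that their values are descriptions. Prrc2a, Per3 and Il2ra were also tested only through 4 h.

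The same interval was measured after acetaminophen, in other rats. From 4 to 12 h after acetaminophen 3303 of the 10959 probes passed (30.1%). Of the 79 named probes called after methyl parathion, 63 were also called after acetaminophen, all in the same direction, which is 79.7% of the methyl parathion list and 5.70% of the 1105 named probes of the acetaminophen list. The difference between the chemicals itself passed for 639 probes (5.83%), 115 with a higher (1.05%) and 524 with a lower (4.78%) change after methyl parathion. Among the 79 it passed for 8. Anxa1 rose by 1.29 after methyl parathion and 3.30 after acetaminophen (difference -2.01 ± 0.404; limma adjusted p = 0.0021), Padi4 by 1.16 and 2.69 (difference -1.53 ± 0.447; limma adjusted p = 0.0344), and Acot7, Klra2, Alox5ap and Tspo, named because they complete these 8, likewise rose more after acetaminophen. Prrc2a and Dnaja2 fell after methyl parathion, with changes of 0.80 and 0.20 after acetaminophen (differences -2.39 ± 0.477 and -1.09 ± 0.325; limma adjusted p = 0.0021 and 0.0374). For Per2 the changes were 1.13 and 2.45 (difference -1.32 ± 0.418; limma adjusted p = 0.0531), and for Il2ra -1.82 and -0.19 (difference -1.63 ± 0.535; limma adjusted p = 0.0651), neither difference passing.

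Some genes with no call after methyl parathion had the largest differences. Changes were 0.58 after methyl parathion and 3.49 after acetaminophen for Gk, glycerol kinase, 0.85 and 3.72 for Ccr1, a chemokine receptor of myeloid cells, 0.07 (-0.20 under median centring) and 2.89 for Ier3, an immediate early gene, and 0.60 and 3.30 for Hp, the haemoglobin scavenger haptoglobin (limma adjusted p of the differences 0.0012, 0.0021, 3.14e-06 and 0.000806). In the other direction they were 0.48 and -1.47 for Ramp3, which modifies calcitonin-family receptors, 1.10 and -0.64 for Mpst, a sulphide-forming enzyme, and 0.84 and -0.74 for Gata1, the erythroid transcription factor (limma adjusted p of the differences 0.0057, 0.0166 and 0.0183).

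**Figure D5:**
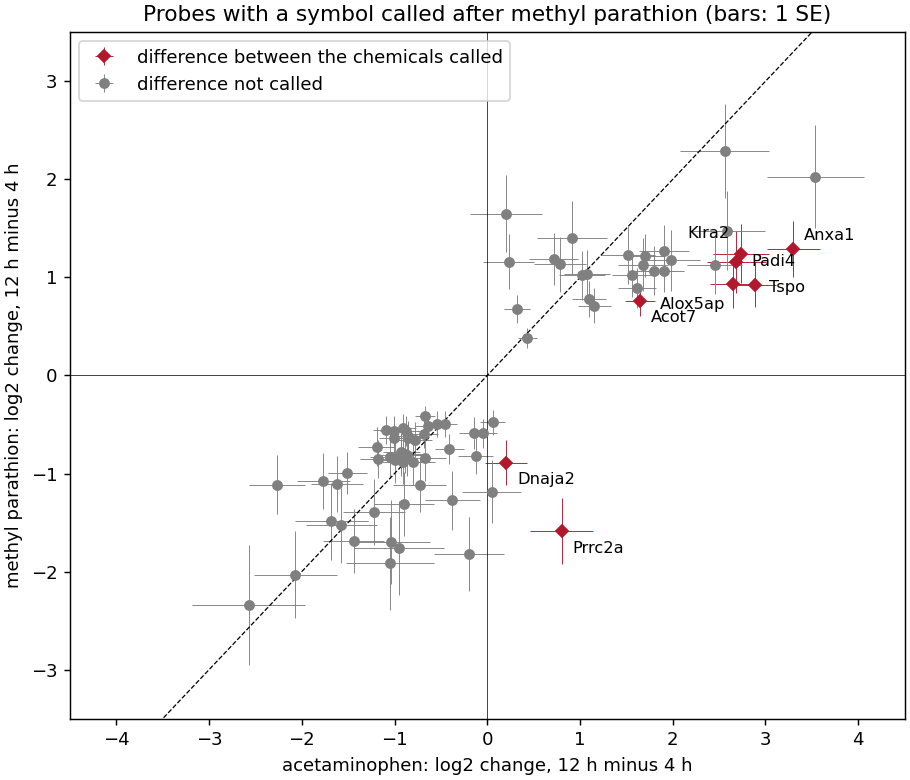
For the 79 named probes called from 4 h to 12 h after methyl parathion, the change after methyl parathion (vertical axis) is plotted against that after acetaminophen (horizontal axis), both as 12 h minus 4 h on the log2 scale with bars of 1 SE and a dashed line of equal change. The 8 probes whose difference between the chemicals passed are diamonds with names, 6 of them rises that were larger after acetaminophen.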

How the data were processed

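Leukocyte RNA of single rats was hybridized to single-channel rat arrays read by chemiluminescence, per the labels' protocols. The deposited per-array tables hold raw signal intensity, a signal-to-noise score and whole-number quality flags. The deposited series table holds log2 values, which equal the log2 of quantile-normalized raw signals; the genome build of the array and the software were not given in the sources used here. Of 26857 gene probes, 6104 had exactly 1 gene symbol in the platform annotation, 70 several and 20683 none.

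Spots with a flag of 5000 or above were treated as missing (0.96% of values) and values were floored at the 5th percentile. limma 3.58.1 in R 4.3.3 fitted all 38 arrays in 10 groups (eBayes with trend, 28 residual degrees of freedom, two-sided, Benjamini-Hochberg adjustment, threshold 0.05). Each array is 1 rat, and p-values measure the spread between these rats. Where no array of a group was above the signal-to-noise limit, a fold is given as a lower bound, set per array against the higher of the lowest detected signal and the probe's own value (for Il2ra and Prrc2a its own value on every array). The bound is one of group means and concerns background only. It leaves out the spread between rats, for which the SE is given. On simulated data with 10961 probes, 56% of log2 changes of 1 and 91% of changes of 2 were recovered, with 7 false calls. The simulation drew each probe independently, without the deviations that a rat shares across many probes. These figures therefore need not hold for the real arrays.

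Named genes are the non-overlapping calls (up to 20 each way), the 4 smallest p of each of 29 lists, the 6 largest differences from acetaminophen each way, and all tested clock genes. Members and lists were chosen with earlier results of these data known. Alternatives changed the normalization, filter, floor, flags, arrays, weights, variance prior, replicate block and single rats. The number of arrays limits the precision. Promoters are RefSeq sequences.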

Additional observations from a re-analysis of the deposited data

Results flagged for a closer look

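Among 378 groups of 4 rats tested (2 times for each of 160 named genes and 29 lists), 22 held a rat whose gap to its nearest neighbour exceeded Dixon's critical share of the group's range, which chance alone gives for about 1 in 20 groups. At 12 h they were Il2ra at 8.79 in rat 2 (others 7.13 to 7.34), Dnaja2 at 11.31 in rat 2 (others 10.67 to 10.78), Casp4, by its probe that did not pass, at 12.49 in rat 2 (others 11.21 to 11.39), S1pr1 at 13.51 in rat 2 (others 11.72 to 11.95), RT1-DMa at 14.14 in rat 1 (others 14.43 to 14.47) and Laptm5 at 16.30 in rat 2 (others 15.92 to 15.97). Further ones at 12 h were Klf9 at 13.95 in rat 1 (others 13.85 to 13.87), Ube2b at 15.33 in rat 4 (others 15.45 to 15.46), Chrnb2 at 9.19 in rat 2 (others 10.40 to 10.59), Birc5 at 13.36 in rat 1 (others 12.61 to 12.72), Fgb at 18.04 in rat 4 (others 18.70 to 18.73) and Dusp1 at 16.74 in rat 2 (others 17.87 to 17.93). At 4 h they were Tef at 8.87 in rat 4 (others 9.37 to 9.48), Mx1 at 15.48 in rat 4 (others 15.84 to 15.89), Nr4a1 at 12.52 in rat 1 (others 12.86 to 12.93), Ebf1 at 9.37 in rat 4 (others 10.14 to 10.29) and Atp5f1e at 17.61 in rat 1 (others 17.35 to 17.39). Among list means, expressed as deviations from the 4 h mean, they were Glucocorticoid-induced genes at -0.10 in rat 2 at 12 h (others 0.85 to 1.04), Glucocorticoid-induced genes at 0.55 in rat 4 at 4 h (others -0.22 to -0.12), Inflammatory cytokine and NF-kB target genes at -0.11 in rat 2 at 12 h (others 0.33 to 0.41), Endoplasmic reticulum stress genes at 0.47 in rat 1 at 12 h (others 0.07 to 0.12) and Xenobiotic metabolism genes at -0.18 in rat 2 at 12 h (others 0.19 to 0.24).

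The change from 4 to 12 h differed between the chemicals for 232 probes with a symbol (33 higher and 199 lower after methyl parathion), 27 of them of genes named by the rule, by limma's test of the difference (methyl parathion minus acetaminophen, log2, adjusted p at most 0.05). It was lower after methyl parathion for Gk (-2.91), Ccr1 (-2.87), Ggt1 (-2.87), Slc5a3 (-2.84), Ier3 (-2.82), Pter (-2.81), Hp (-2.70), Prrc2a (-2.39), Mmp8 (-2.35), Anxa1 (-2.01) and Il1rap (-1.88), and likewise for Dgat2 (-1.79), Nqo1 (-1.58), Padi4 (-1.53), Tlr2 (-1.47), Tf (-1.35), Lgals3 (-1.27), Dnaja2 (-1.09), Xbp1 (-1.02), Mcl1 (-0.89) and Acot7 (-0.88). It was higher after methyl parathion for Sh2d2a (1.28), Klf9 (1.32), Btrc (1.50), Gata1 (1.58), Mpst (1.73) and Ramp3 (1.95).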

How the results depend on the processing

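Of 204 probes called at 12 h against 4 h, 15 remained under median centring, and the fit made no others. The count was 33 with no detection filter (57.6% higher), 82 in the 8 arrays alone (17 of them shared with the 204), 2303 with array weights, 114 without a variance trend, 315 with the replicate block and 2 in the 19 arrays of the chemical, and 1 to 1266 when 1 rat was left out. Equal rat numbers are not the same animals. Their deviations correlated at 0.089, 0.18, 0.13 and 0.12. For rats 1, 2 and 4 of the 12 h group the equal number gave the highest correlation, and for rat 3 number 4 did (0.18). Whether equal numbers share a step of processing was not tested. For the difference from acetaminophen, 639 probes passed, with 409 under no filter, 1348 with array weights, 645 with the block, and 328 to 1111 when 1 rat was left out; 18.0% were higher, 1.39% under median centring, 31.2% in the groups alone and 32.6% with array weights. Of the 48 calls among the 160 probes picked by the rule for named genes, which are part of the 79 calls with a symbol, 5 kept their call under median centring. The call was kept by 11 with no filter, 8 in the 8 arrays, 1 in the 19 arrays and 29 without a variance trend. None of the 48 changed direction. Changes that reversed were of genes without a call: with array weights Bmal1 (-0.12), Ltbp1 (0.043), Csnk1e (0.078) and Pter (-0.27), and with median centring Ier3 (-0.20) and Sh2d2a (-0.024). With 1 rat left out the changes spanned 0 for Itgb3 (-0.76 to 0.078), Bmal1 (-0.21 to 0.46), Cd79b (-0.40 to 0.13), Ier3 (-0.061 to 0.16), Csnk1e (-0.44 to 0.064), Slc5a3 (-0.71 to 0.24), Pter (-0.24 to 0.41) and Sh2d2a (-0.019 to 0.42). The causes were not tested. Probes near background carry only bounds.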
